A study of Mus musculus with 6 samples.

Results

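E proteins are helix-loop-helix transcription factors that bind DNA as dimers at short sites called E-boxes. Tcf3 encodes E2A, Tcf4 encodes E2-2 and Tcf12 encodes HEB. Id proteins carry the dimerisation motif but lack the DNA-binding region, so they hold E proteins in dimers that cannot bind DNA. Bhlha15 encodes MIST1, a basic helix-loop-helix factor of secretory cells that acts together with the regulators of the secretory apparatus. In the B lineage E2A is needed for early B cell development, and E proteins and their Id inhibitors also act in germinal centre and plasma cell formation. The 8 genes Bhlha15, Tcf3, Tcf4, Tcf12, Id1, Id2, Id3 and Id4 were described here through every probe set whose annotated symbol matched, which gave 24 of 45037 probe sets, or 8 of the 18193 genes with a probe set of their own. The members were chosen by name and not by their values.

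Both groups were C57BL/6 mouse cells measured on 1-colour Affymetrix arrays, with 3 arrays each. Plasma cells, the antibody-secreting end stage of the B lineage, came from bone marrow 7 days after a boost with the protein antigen KLH, enriched through CD138 and sorted as B220 negative and CD138 positive. The B cells, given as naive follicular cells, were splenic cells positive for B220 and CD23, and the labels give no boost for them. Input was 50000 to 70000 plasma cells or 2000000 to 3000000 B cells, so tissue, boost, enrichment and input cannot be told apart from cell type. Sex also went in part with cell type, as given below. The labels give neither the age of the mice nor whether arrays came from separate animals. P-values reflect array-to-array spread. Sex-linked genes, given below, set B cell array 1 apart from B cell arrays 2 and 3, so the B cell spread includes a difference between animals. Among the plasma cell arrays, and between B cell arrays 2 and 3, the spread may be technical only. In bulk samples fewer expressing cells and less RNA per cell cannot be told apart.

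The labels held against defining markers. All 6 measured plasma cell markers were higher in plasma cells and all 6 measured B cell markers lower, with the sums of each list not overlapping between groups. Sdc1 (CD138), Fcer2a (CD23) and Ptprc (B220) among them encode proteins used in the sort, so their directions are no separate check. B cell array 1 stood apart, with Pearson correlations of 0.933 and 0.926 to B cell arrays 2 and 3, which correlated at 0.992 (across probe sets, which are not independent). The summed intensity of 9 measured T and NK cell markers was 6253 on that array against 450.4 and 510.2 on the other B cell arrays, and that of 6 erythroid markers 1468 against 96.2 and 117.4. Slc4a1, at 1158, held most of that erythroid sum on B cell array 1. Klf1, Epor and Hba-a1 lay within background there, and Hba-a1 was lower than on the other B cell arrays (12.8 against 21.1 and 33.9). Myeloid markers also varied within both groups, with sums of 16262, 6075 and 5473 over the B cell arrays and 7752, 17818 and 14153 over the plasma cell arrays, with S100a8 and S100a9 holding most of the plasma cell sums. Of the 10 myeloid markers 4 were called lower in plasma cells, Lyz2 (−2.21), Adgre1 (−2.19), Csf3r (−2.19) and Csf1r (−1.70, adjusted p = 0.0398), and Mpo was called higher. Of 8 stromal and endothelial markers only Cdh5 was called, higher in plasma cells, and the list's median log2 fold change was −0.26. Xist, which silences an X chromosome in female cells, read 8408 on B cell array 1, 30.8 and 18.1 on B cell arrays 2 and 3, and 8070 to 8702 on the plasma cell arrays. Kdm5d, a Y chromosome gene, read 3.6 on B cell array 1, 1507 and 1576 on B cell arrays 2 and 3, and 8.8, 7.9 and 3.0 on the plasma cell arrays. B cell arrays 2 and 3 thus read as male and all other arrays as female. With all 6 arrays, sex therefore goes in part with cell type. Without B cell array 1 it goes with cell type fully. Levels at or below the 95th percentile of 27 bacterial control probe sets, 23.0 to 41.8 over the 6 arrays, are called within background here.

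Among the members, MIST1 rose, HEB and E2-2 rose more modestly, E2A was not called, and the Id gene Id3 fell. Of the 24 probe sets 10 were called higher and 1 lower in plasma cells at an adjusted p of 0.05 (limma). The background was high: of all 45037 probe sets 26.2% were called, 13.4% higher and 12.8% lower. The members called higher were 1 of 2 probe sets of Bhlha15, 5 of 6 of Tcf4 and 4 of 5 of Tcf12, and the lower one was the single probe set of Id3. Over the 14 probe sets of the 3 E protein genes the median log2 fold change was 0.60, and over the 8 of the Id genes −0.74, where the median of all probe sets was −0.13. Probe sets of one gene share its transcripts and are not independent. The arrays of 15 of the 24 probe sets did not overlap between groups, 13 with plasma cells higher, and 2 with them lower, against 45.4% of all probe sets, 20.8% higher and 24.6% lower. On all 6 arrays 17 of the 24 lay above background.

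**Figure D1:**
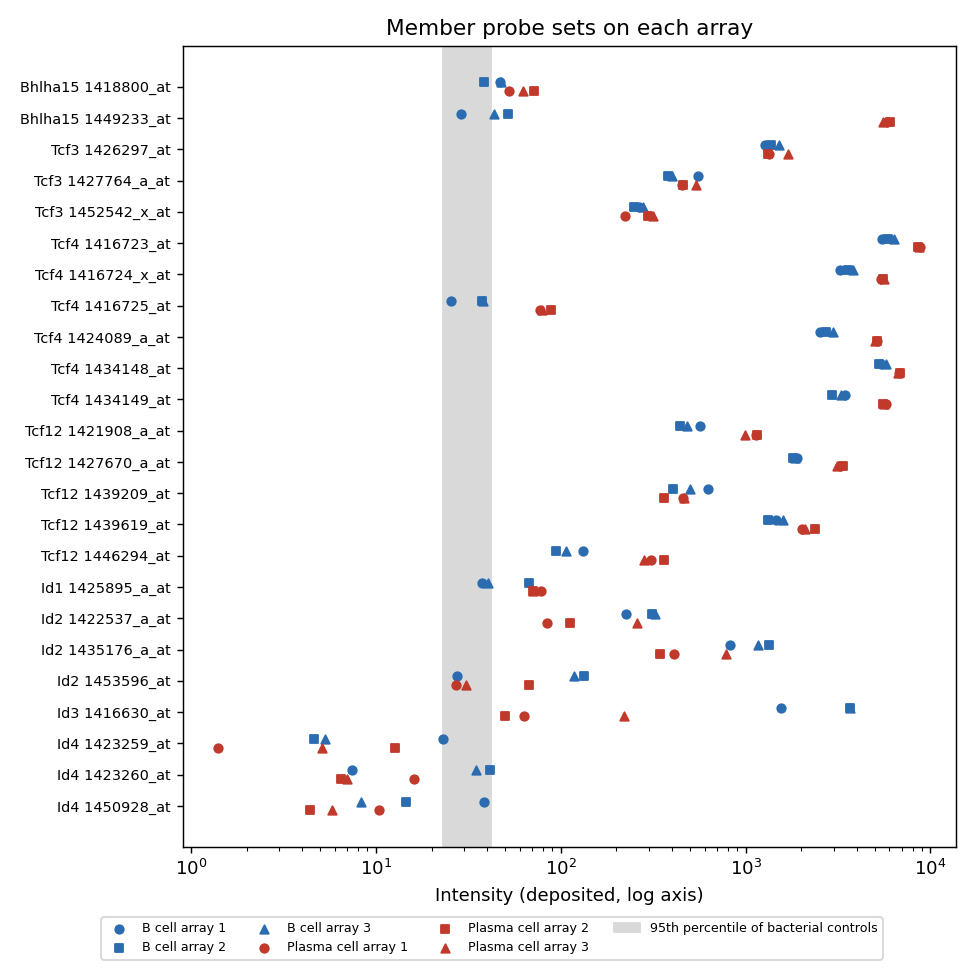
Deposited intensity (log axis) of each of the 24 member probe sets on the 6 arrays, B cells in blue and plasma cells in red, with symbols for the array number. The grey band spans the background percentile of the arrays, 23.0 to 41.8. Bhlha15 1449233_at and Id3 1416630_at show the widest gaps between groups, while the 3 Tcf3 probe sets overlap.

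Bhlha15 carried the largest change of the set. Its probe set 1449233_at was at 28.9, 51.8 and 43.8 on B cell arrays 1 to 3 and at 5803, 6057 and 5536 on plasma cell arrays 1 to 3. The groups were far apart, and among B cells array 1 lay within background. The plasma cell mean was 5799 ± 261 (SD, n = 3) against a B cell mean of 41.5 ± 11.6, a ratio of 139.7 (log2 fold change 6.68 ± 0.19 SE, adjusted p = 3.56e-05 by limma). Fold changes are on the scale of log2(intensity + 16), which understates the change of dim probe sets. Because the B cell level lies near background, the fitted size depends on the added constant, at 7.13 with a constant of 1 and 5.80 with 64. The second probe set, 1418800_at, was annotated to the same sequence record and did not show this. It was at 47.2, 38.5 and 47.8 in B cells and at 52.6, 71.8 and 62.4 in plasma cells, without overlap but dim in both (log2 fold change 0.37, 95% interval −0.01 to 0.75, adjusted p = 0.144). With array weights it was called higher (0.43, adjusted p = 0.0335). Why the pair of probe sets differ was not tested.

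The upstream windows of Bhlha15 and Id3, the members with the largest rise and the largest fall, are shown because E proteins, MIST1 and, indirectly, Id proteins act through E-boxes. Each is the 250 bases before the annotated start from RefSeq, build GRCm38.p6, both on the plus strand, 5′ to 3′, with every match to the E-box pattern CANNTG in capitals.
Bhlha15, chr5:144190036-144190285: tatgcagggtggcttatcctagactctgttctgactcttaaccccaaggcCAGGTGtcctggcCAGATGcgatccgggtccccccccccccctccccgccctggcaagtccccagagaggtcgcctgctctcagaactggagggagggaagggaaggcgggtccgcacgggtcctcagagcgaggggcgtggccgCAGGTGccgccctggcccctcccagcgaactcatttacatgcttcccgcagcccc
Id3, chr4:136143572-136143821: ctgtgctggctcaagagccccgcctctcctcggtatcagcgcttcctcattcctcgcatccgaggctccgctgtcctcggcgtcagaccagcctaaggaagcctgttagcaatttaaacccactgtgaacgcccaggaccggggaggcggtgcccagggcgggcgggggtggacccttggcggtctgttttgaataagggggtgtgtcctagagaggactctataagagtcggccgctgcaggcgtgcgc
The Bhlha15 window held 3 matches, CAGGTG with its first base 200 bases before the start, CAGATG at 187 and CAGGTG at 55. The Id3 window held 0. Of 32851 such windows, 66.2% held at least 1 match and 12.2% held 3 or more. CANNTG reads the same on both strands. The pattern CAGGTG, searched on both strands and a subset of CANNTG, was in 17.2% of windows. For the E-box CATATG the share was 3.46%, and neither printed window held it. The table held windows for 6 of the 8 genes, without Id1 and Tcf4. In the other windows Tcf3 had 1 match, Id2 had 1, Id4 had 0, and the 3 windows of Tcf12 had 1, 1 and 0. A match describes the letters only and is not a measured binding site.

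Of the E protein genes, Tcf4 had the most probe sets. For Tcf4, which encodes E2-2, all 6 probe sets were higher on every plasma cell array than on any B cell array. The probe set with the highest values, 1416723_at, was at 5472, 5876 and 6348 in B cells and at 8824, 8618 and 8632 in plasma cells, a rise of 0.56 ± 0.13 SE on the log2 scale (adjusted p = 0.0228). The plasma cell mean was 8692 ± 115 (SD, n = 3) and the B cell mean 5898 ± 438. The largest change among the brighter probe sets was that of 1424089_a_at, from 2733 ± 220 in B cells to 5091 ± 41.8 in plasma cells, with 2521, 2716 and 2960 against 5118, 5112 and 5043 (0.90 ± 0.13, adjusted p = 0.00416).

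The other Tcf4 probe sets gave a range of sizes. The probe set 1434149_at rose by 0.81 ± 0.13 on the log2 scale, from 3223 ± 256 to 5634 ± 127 (SD, n = 3). The dim 1416725_at, at 25.4, 37.3 and 37.8 in B cells and 76.8, 89.0 and 79.1 in plasma cells, rose by 0.99 ± 0.16. For 1416724_x_at, whose suffix marks probes that can match other transcripts, the rise was 0.64 ± 0.13 (adjusted p = 0.0151). The remaining one, 1434148_at, was at 5471 ± 240 in B cells and 6765 ± 58.0 in plasma cells and was not called (0.31, 95% interval 0.01 to 0.60, adjusted p = 0.121). The calls of 1416723_at and 1416724_x_at were lost on leaving out B cell array 2 or any 1 plasma cell array (adjusted p of 0.0709 to 0.0953 for the first and 0.0527 to 0.0651 for the second). They were also lost after median centring, at 0.11 and 0.0808. Across all 6 probe sets the log2 fold change was positive in every alternative fit, from 0.20 to 1.28.

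Tcf12, which encodes HEB, rose on 4 of 5 probe sets. On 1427670_a_at B cells were at 1898, 1816 and 1855 and plasma cells at 3223, 3381 and 3141, which did not overlap (log2 fold change 0.80 ± 0.12 SE, adjusted p = 0.00493). The mean was 3249 ± 122 (SD, n = 3) against 1856 ± 41.1, a ratio of 1.75. On 1421908_a_at the values were 569.2, 443.3 and 481.1 in B cells and 1139, 1147 and 992.9 in plasma cells, again without overlap (1.11 ± 0.15, adjusted p = 0.00355). The dimmer 1446294_at rose most, from 111.4 ± 19.6 to 317.2 ± 40.9 (1.39 ± 0.18, adjusted p = 0.00255). The rise of 1439619_at, by 0.57 ± 0.14 (adjusted p = 0.033), was the least stable call of the set. It was lost on leaving out any 1 array other than B cell array 1 (adjusted p of 0.0574 to 0.124), after median centring (0.0969) and with an added constant of 1 (0.0507). The probe set 1439209_at did not follow the others. It was at 622.6, 404.0 and 499.9 in B cells and at 459.2, 361.9 and 466.8 in plasma cells (−0.22, 95% interval −0.73 to 0.28, adjusted p = 0.472).

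Tcf3, which encodes the E12 and E47 forms of E2A, was measured by 3 probe sets, and on all of them the groups overlapped. On 1426297_at the level was 1275, 1370 and 1523 in B cells and 1338, 1321 and 1693 in plasma cells. The log2 fold change was 0.06 with a 95% interval from −0.34 to 0.45 (adjusted p = 0.83). On 1427764_a_at it was 0.13 (−0.32 to 0.59, adjusted p = 0.642) and on 1452542_x_at 0.06 (−0.36 to 0.48, adjusted p = 0.834). These intervals leave room for a change of either sign, and none of the 3 was called in any alternative fit, where their adjusted p ranged from 0.0778 to 0.995. All 3 lay above background on all 6 arrays. Whether Tcf3 changed less than Tcf4 or Tcf12 was not tested.

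**Figure D2:**
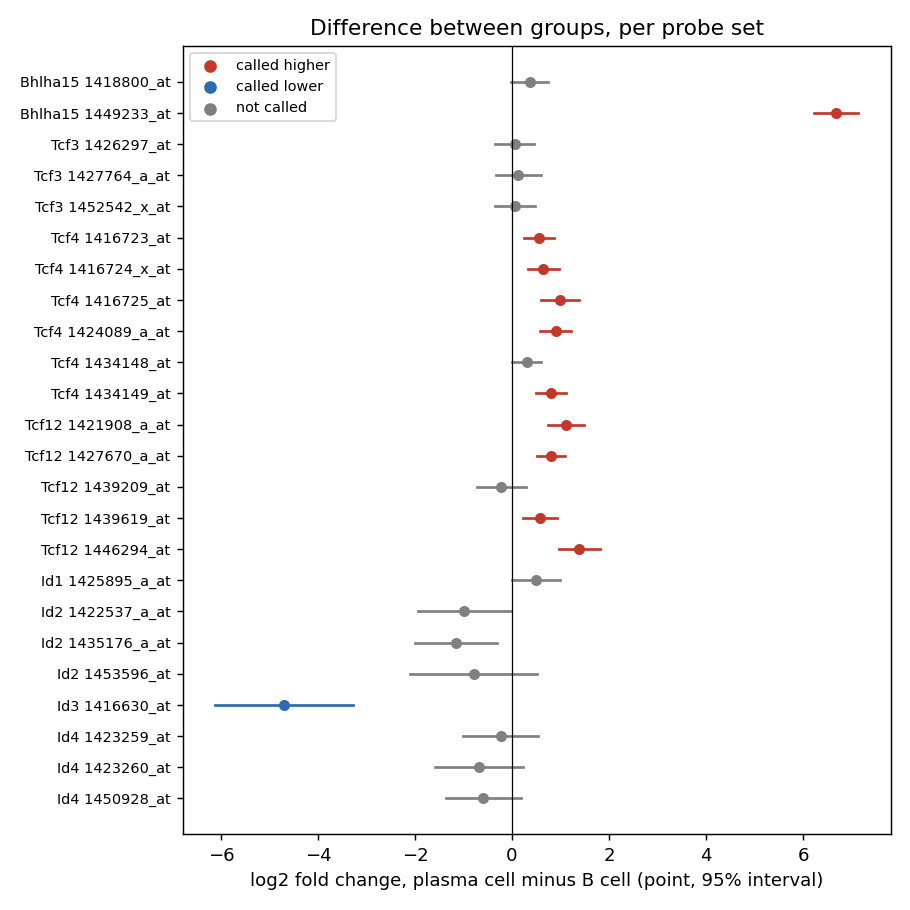
Log2 fold change of plasma cells minus B cells for the 24 member probe sets, with the 95% interval of the limma fit. Red marks probe sets called higher, blue lower and grey not called. Bhlha15 1449233_at lies at 6.68 and Id3 1416630_at at −4.69, while the called E protein probe sets lie between 0.56 and 1.39.

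Among the Id genes Id3, an inhibitor induced by antigen receptor signals through Egr factors, was the member that fell. Its only probe set, 1416630_at, was at 1564, 3662 and 3680 on B cell arrays 1 to 3 and at 63.2, 50 and 220.8 on plasma cell arrays 1 to 3. Every plasma cell array was below every B cell array, but neither group was even. The plasma cell mean was 111.3 ± 95 (SD, n = 3) against a B cell mean of 2969 ± 1217, a ratio of 26.7 in favour of B cells (log2 fold change −4.69 ± 0.58 SE, 95% interval −6.12 to −3.27, adjusted p = 0.0024). Plasma cell array 3 was 3.9 times the mean of plasma cell arrays 1 and 2, and B cell array 1 was 0.426 times the mean of B cell arrays 2 and 3. Without plasma cell array 3 the log2 fold change was −5.26 (adjusted p = 0.00289). Without B cell array 1, where sex goes with cell type, it was −5.10 (adjusted p = 0.00229). The call held in all 15 alternative fits, between −5.26 and −4.14.

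Id2, which restrains E proteins in innate lymphoid and several myeloid cells, was lower on average in plasma cells but not called. On 1435176_a_at it was at 820.3, 1336 and 1167 in B cells and at 412.5, 343.1 and 780.2 in plasma cells. The groups just failed to overlap, with plasma cell array 3 next to B cell array 1 (log2 fold change −1.15 ± 0.35 SE, 95% interval −2.00 to −0.30, adjusted p = 0.0581). On 1422537_a_at plasma cell array 3, at 258.3, lay inside the B cell range of 226.2 to 323.1, and arrays 1 and 2 were at 83.9 and 112.2 (−0.98, adjusted p = 0.127). The dim 1453596_at was at 27.4, 133.9 and 118.4 in B cells and at 27.0, 67.4 and 30.7 in plasma cells (−0.79, adjusted p = 0.334). Calls of Id2 depended on the fit. Array weights called all 3 probe sets lower (adjusted p 0.00336 to 0.0154). That fit nearly leaves out B cell array 1, with a weight of 0.105 against 3.61 for B cell array 2. With all 6 arrays weighted alike, 1435176_a_at was called lower with an eBayes trend (0.0307) and with an added constant of 64 (0.0466). Without plasma cell array 3, 1435176_a_at (−1.49, adjusted p = 0.0207) and 1422537_a_at (−1.40, adjusted p = 0.018) were called lower. Without B cell array 1, where sex goes with cell type, it was 1435176_a_at (−1.35, adjusted p = 0.0368) and 1453596_at (−1.36, adjusted p = 0.0231).

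The uneven arrays of Id2 and Id3 also differed in markers of other cells. On plasma cell array 3, where Id3 and Id2 1435176_a_at and 1422537_a_at were highest among plasma cells, but not the dim Id2 1453596_at, the summed T and NK cell markers were 2479 against 1238 and 1229 on plasma cell arrays 1 and 2, with 0 of 9 markers within background on all plasma cell arrays. The 5 measured early B cell markers summed to 19086 there against 14090 and 10212. The sum of the 6 mature B cell markers was not higher, at 6839 against 7542 and 7565. Ptprc (4170) and Ms4a1 (2486) made up most of that sum on plasma cell array 3. Among plasma cells, Spib (3848 against 652.2 and 1613) and Bach2 (2360 against 621.0 and 962.8) were highest on array 3. So were Ebf1, Irf8, Ccr7, Socs3 and Cd79a, while Pax5, Foxo1, Bcl6 and Cxcr5 were not. On B cell array 1 Id2 and Id3 were lowest among B cells. The T and NK cell sum there was 13.0 times the mean of the other B cell arrays. The erythroid sum, mostly Slc4a1, was 13.7 times and the B cell marker sum 0.892 times that of those arrays. The part of these cells in the Id2 and Id3 values was not tested. Of the 10 myeloid markers, 4 were called lower, the direction of Id3, 1 was called higher (Mpo) and 5 were not called. Among those not called, S100a8 (1.78), S100a9 (1.58) and Ltf (1.83) had positive log2 fold changes, and the list's median was −0.26. The part of myeloid cells was likewise not tested. The fits of Id3 without either array, given above, do not test this. T and NK cell sums of 1238 and 1229 remained on plasma cell arrays 1 and 2, against 450.4 and 510.2 on B cell arrays 2 and 3. Cd4 made up 311.4 and 393.5 of the former and 13.3 and 14.3 of the latter. It was the only marker of that list called (3.60, adjusted p = 1.25e-04 by limma). Cd4 lay within background on B cell array 1 (23.8), where Cd3e was at 1965. On the same arrays Cd3e was also higher in plasma cells (224.8 and 175.1 against 27.2 and 36.5), and Zap70 was lower.

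**Figure D3:**
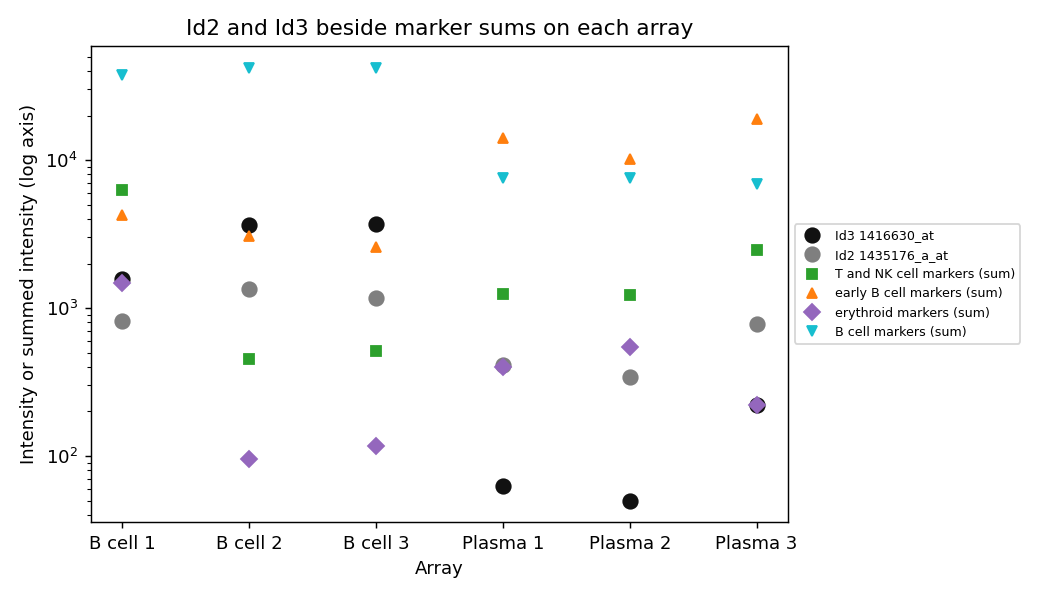
Intensity of Id3 1416630_at and Id2 1435176_a_at and summed intensity of 4 marker lists on each array (log axis), to be read across arrays within a symbol. Id3 and Id2 are highest among plasma cells on array 3, at 220.8 and 780.2, and lowest among B cells on array 1, at 1564 and 820.3.

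Id1 and Id4 gave little signal. Id1, an inhibitor linked to BMP signalling, was at 37.7, 67.5 and 40.2 in B cells and at 78.5, 71.2 and 70.7 in plasma cells, where array 1 of the B cells lay within background. The groups did not overlap, but the difference was not called (log2 fold change 0.50, 95% interval 0.00 to 1.00, adjusted p = 0.131). Without B cell array 2 it was called higher (0.70, adjusted p = 0.0365). For Id4 1423259_at and 1450928_at lay within background on all 6 arrays. The third, 1423260_at, was at 7.4, 41.5 and 34.9 in B cells and at 16, 6.5 and 7.0 in plasma cells, above background on 2 B cell arrays only (−0.68, adjusted p = 0.241). It was called lower without B cell array 1 (−1.08, adjusted p = 0.0101), where sex goes with cell type.

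Gene lists around the network were read from a table of 18193 genes, each as its brightest probe set, in which 30.0% of genes were called, 17.7% higher and 12.4% lower, with a median log2 fold change of −0.06. Each list is given by counts and median only.

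Genes known as MIST1 targets in secretory cells were mostly higher in plasma cells. Of 10 measured, 7 rose and 1 fell, and their median log2 fold change was 1.93. Copz2, a coat protein of Golgi vesicles, was within background on all B cell arrays, at 16.5, 19.3 and 20.8, and at 1312, 1287 and 1183 in plasma cells, at least 43.9-fold higher against the background percentile (adjusted p = 1.84e-05). Rab3d, a GTPase of secretory granules, was at 114.3, 129.0 and 112.3 in B cells and at 2259, 2241 and 2201 in plasma cells (4.07 ± 0.11 SE, adjusted p = 2.28e-05). Rab26, another GTPase of secretory vesicles, was at least 7.58-fold higher (199.8, 231.9 and 221.3 in plasma cells, within background in B cells, adjusted p = 1.18e-04). Itpr2, a calcium release channel, fell by 0.68 on the log2 scale (adjusted p = 0.0212), a call lost after median centring (0.224) and without any 1 array other than B cell array 1 (0.064 to 0.0862). Cplx2, which regulates vesicle fusion, was not called, at 123.0, 234.7 and 672.6 over the plasma cell arrays against 55.6, 125.8 and 149.0. Gjb1, a gap junction gene, lay within background on all 6 arrays. Ccpg1, Tmed6, Atp2c2 and Serpini1 were the other genes called higher, and averaging all Serpini1 probe sets ended its call (adjusted p = 0.681).

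All 6 genes listed upstream of Bhlha15 rose, with a median of 3.27. Besides Prdm1 (Blimp-1, 5.67 ± 0.12), the membrane-bound factor Creb3l2 (5.12 ± 0.25) and the stress sensor Ern1 (3.69 ± 0.26) showed the largest changes, with Ern1 at 159.1, 279.3 and 310.4 in B cells and at 3413, 3557 and 2926 in plasma cells. These 6 were listed with earlier results known. Prdm1, Xbp1 and Irf4 are also among the plasma cell markers given above, so their rise is not separate information.

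E protein cofactors split evenly. Of 16 measured 3 rose and 3 fell, with a median of −0.21. The members that fell belong to the LMO2 and LDB1 complex that E proteins join in blood cells. Lmo2, its bridging subunit, was at 8568, 8292 and 8460 in B cells and at 3079, 2053 and 2669 in plasma cells (−1.71 ± 0.17, adjusted p = 9.92e-04). Ldb1, its dimerising subunit, was at 1191, 1462 and 1633 against 543.8, 474.7 and 609.4 (−1.37 ± 0.17, adjusted p = 0.00218), and Ssbp2, a partner of Ldb1, fell by 1.32. Ssbp3, a related partner, rose by 0.75 ± 0.15 (adjusted p = 0.0135). Its call was lost after median centring and without any 1 plasma cell array (adjusted p 0.0506 to 0.0658). The rises of the corepressor Cbfa2t3 (0.62) and the acetyltransferase Kat2b (0.51) were lost in 8 and 9 of 16 alternative fits, with adjusted p up to 0.519 and 0.638. The fall of Ssbp2 was lost without B cell arrays 2 (0.0771) or 3 (0.0844) or plasma cell array 1 (0.0683).

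Inputs to Id genes, the BMP and TGF-beta pathway and the Egr factors, had 6 of 21 measured genes lower and 2 higher, with a median of −0.16. The list also holds inhibitors of the pathway, so these counts do not give the direction of the input. Egr3, an antigen receptor response factor, was at 4097, 3589 and 3574 in B cells and at 411.1, 361.8 and 562.5 in plasma cells (−3.05 ± 0.19, adjusted p = 1.74e-04). Egr1 (0.68, adjusted p = 0.165) and Egr2 (−0.04, adjusted p = 0.944) were not called and were highest on plasma cell array 3, at 11667 and 1543. Smad7, an inhibitor of the pathway, fell by 1.72 and Smad1, which carries BMP signals, by 1.58, with adjusted p of 0.00215 and 0.00343. Acvr1b, Smad2 and Tgfbr2 were the others called lower. The BMP receptor genes Bmpr1a (2.52, adjusted p = 0.0582) and Bmpr2 (0.71, adjusted p = 0.0843) were higher in plasma cells without overlap but not called. Bmpr1b lay within background on all 6 arrays. Tgfbr1, a receptor chain, rose by 0.60 (adjusted p = 0.0118) and Smad3 by 0.43 (adjusted p = 0.0316). Both calls were lost with the mean of all probe sets of the gene (0.892 and 0.944), after median centring (0.0645 and 0.165) and without B cell array 2 (0.0505 and 0.0904) or plasma cell array 2 (0.053 and 0.113). That of Smad3 was also lost without B cell array 3 (0.0882), plasma cell array 1 (0.13) or plasma cell array 3 (0.0642).

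Genes that E proteins bind or control in the B lineage went both ways. Of 29 measured 10 rose and 11 fell, with a median of −0.04. This list overlaps the marker lists. Those that rose include all 5 measured early B cell markers and the plasma cell markers Prdm1, Xbp1 and Irf4. Those that fell include the B cell markers Pax5 and Cxcr5. The largest falls were those of Cxcr5, a follicle homing receptor (−7.04 ± 0.33), Ccr7, a lymph node homing receptor (−5.72 ± 0.38), and Bcl6, a germinal centre repressor (−4.36 ± 0.18). Dntt, the terminal transferase of early B cells, was within background on all B cell arrays and at 4059, 454.5 and 6212 in plasma cells, at least 78.7-fold higher and uneven (adjusted p = 0.00538). The recombinase gene Rag1 was at 59.0, 35.6 and 37.0 in B cells and at 815.3, 1075 and 2250 in plasma cells (4.43 ± 0.40, adjusted p = 6.22e-04). All 5 measured early B cell markers were called higher in plasma cells, their sum being 10212 to 19086 there and 2569 to 4260 in B cells. The call of Vpreb1 was lost without any 1 B cell array or plasma cell array 1 (adjusted p 0.0693 to 0.0977), and that of Rag2 without B cell array 2 or 3 or plasma cell array 1, or with an added constant of 64 (0.0556 to 0.0965). Early B cells also express E proteins, and the part of such cells in the rise of Tcf4 and Tcf12 was not tested. On plasma cell array 3 the sum was 1.57 times the mean of the other plasma cell arrays. Igll1, its largest part, was even over plasma cell arrays 1 to 3, at 8737, 8358 and 8367. Dntt, Rag1, Rag2 and Vpreb1 were each highest on array 3, so the sum understates their excess there. Tcf4 1416723_at on array 3 was 0.99 times and Tcf12 1427670_a_at 0.951 times the mean of the other plasma cell arrays. For plasmacytoid dendritic cells, which depend on E2-2, the 5 markers summed to 1419 to 2302 in plasma cells and 815.9 to 1553 in B cells, 1 called higher (Cox6a2) and 1 lower (Pacsin1).

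**Figure D4:**
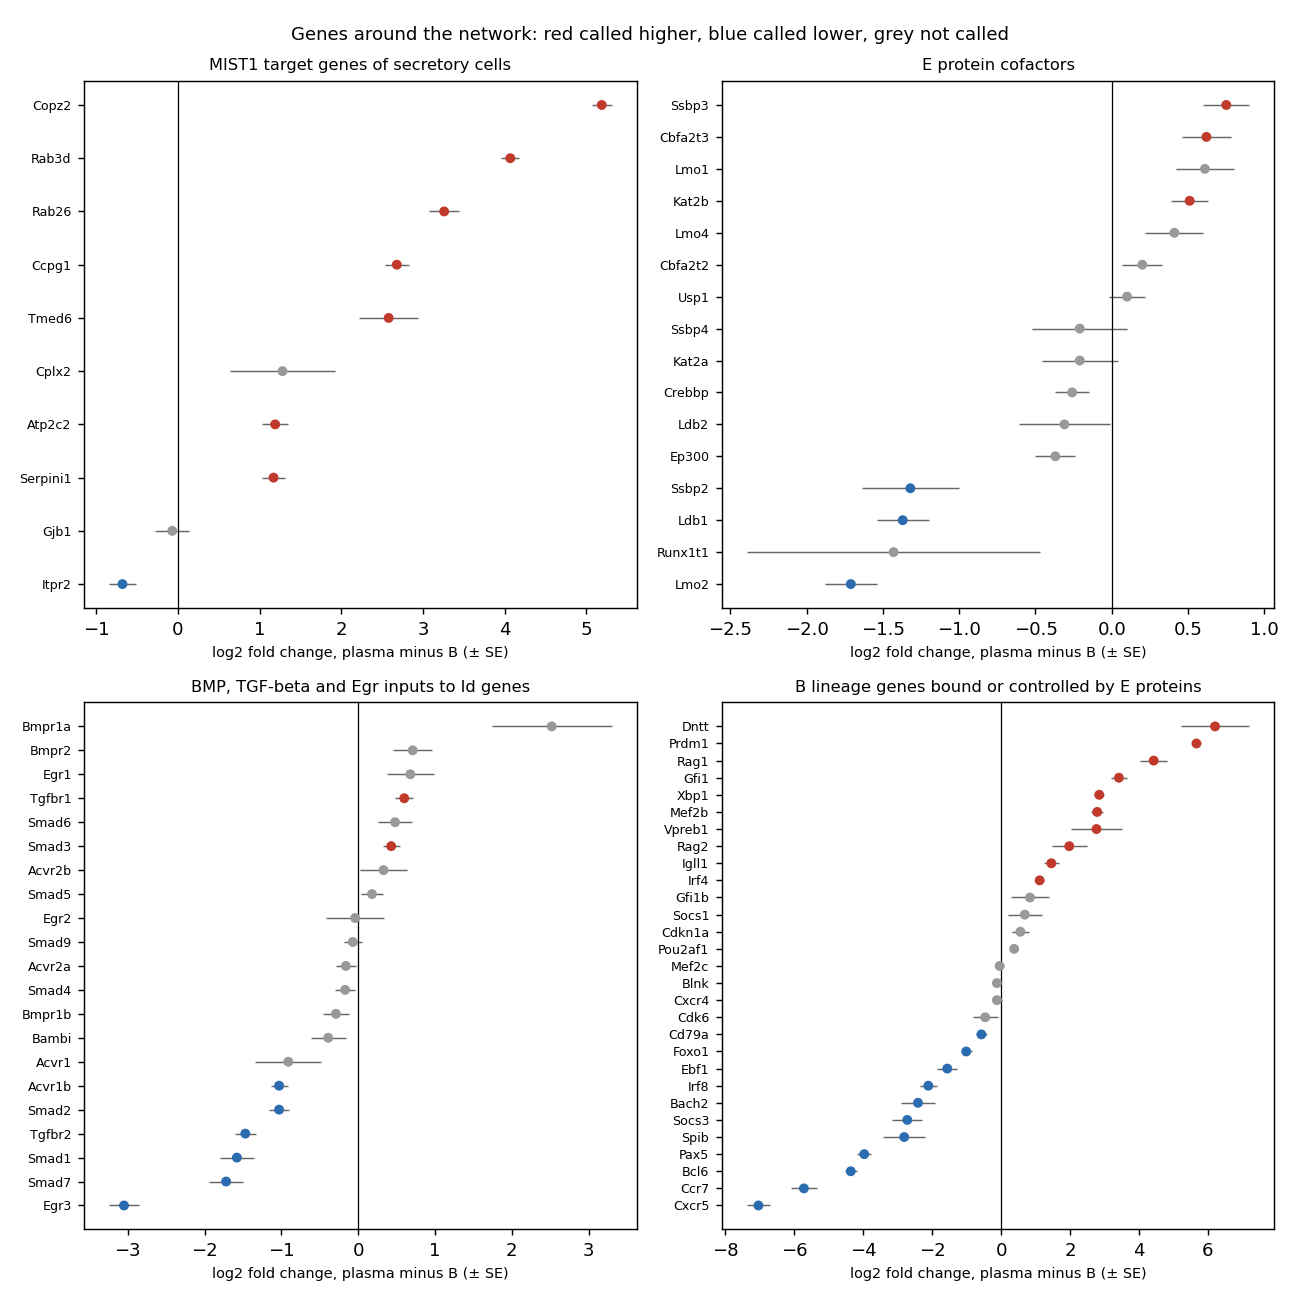
Log2 fold change of plasma cells minus B cells (point, ± SE) for the measured genes of 4 lists, in red where called higher, blue where called lower and grey where not called. In the MIST1 target list 7 of 10 genes are red, and in the E protein cofactor list 3 are red and 3 blue.

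Tissue-restricted helix-loop-helix partners of E proteins were mostly dim, 15 of 41 measured lying within background on all 6 arrays. Of the 41, 1 rose and 3 fell, with a median of −0.19. Neurod4, a neuronal factor, was at 442.6, 318.2 and 325.8 in B cells and within background on all plasma cell arrays, at least 11.8-fold lower (adjusted p = 1.37e-04). Lyl1, a haematopoietic partner, was at 2375, 4487 and 4600 in B cells and at 1744, 1568 and 1626 in plasma cells (−1.15 ± 0.28, adjusted p = 0.0261). Its call was lost without any 1 array other than B cell array 1 (adjusted p 0.077 to 0.0901) and after median centring (0.0952). The neural factor Atoh1 was within background on all plasma cell arrays and above it on 1 B cell array only, so no fold is given for its lower call. That call and the higher one of its relative Atoh8 (0.77) were each lost in 8 of 16 alternative fits, with adjusted p up to 0.166 and 0.105. Among Hes and Hey factors and their Tle corepressors 2 rose and 2 fell of 13, with a median of −0.12. Hes1, a Notch target, was at 809.5, 1123 and 1133 in B cells and at 246.9, 175.2 and 384.3 in plasma cells (−1.92 ± 0.30, adjusted p = 0.00526). Hes5 was within background on all plasma cell arrays and at least 4.21-fold lower, while Hes7 was within background on all B cell arrays and at least 1.84-fold higher. The corepressor Tle2 rose by 1.90, a call lost without any 1 plasma cell array (adjusted p 0.051 to 0.061).

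Genes with the profile most like each member were taken by the smallest Euclidean distance between log2 profiles centred on their mean over the 6 arrays, among 16289 other genes. With 2 groups of arrays this mostly ranks genes by a like difference. For Bhlha15 they were Tmem176a, Pon3 and Mt2, at distances of 0.46, 0.59 and 0.62. For Id3 they were Rnf144a, Lfng and Serpinb1a, at 0.80, 0.96 and 0.96. Tcf4 was nearest to Abcf2 (0.05), the TACI gene Tnfrsf13b (0.06) and Rmdn3 (0.07), and Tcf12 to Tmem41b (0.07), Brcc3 (0.08) and Ccng1 (0.09). Tcf3 was nearest to Pex7 (0.07), Nr1i3 (0.09) and Snrpa1 (0.09), and Id1 to Lipa (0.16), Ppp1r37 (0.19) and Mtln (0.22). For Id2 they were Cpne5 (0.32), Fes (0.33) and Marcksl1 (0.37).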

How the data were processed

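Per the labels, RNA was extracted with a column kit, amplified with NuGEN Ovation V2 and labelled with biotin. The deposited intensity values are linear. For their summarisation and scaling, no method is given in the sources used here, and upper quartiles ran from 623 to 682 over the arrays. Of 45101 probe sets 64 controls were left out. Platform annotation gave 1 symbol for 34945, several for 932 and none here for 9160, and 34741 were matched through Entrez identifiers to RefSeq (GRCm38.p6). Values were taken as log2(intensity + 16) and tested per probe set with limma 3.58.1 in R 4.3.3 (lmFit, eBayes without trend) and Benjamini-Hochberg adjustment over all 45037 probe sets, of which 16925 had an unadjusted p under 0.05. Lists used a gene table fitted likewise. A group within background on all 3 arrays was set to the background percentile for "at least" folds. Array number limits the precision. Members, lists and the naming rule (all member probe sets, up to 3 and 2 called genes per list by size, 3 most similar genes per member) were chosen with earlier results of these data known, and genes named beyond it were chosen after their values were seen. The test was first tested on simulated data with 50 probe sets changed at each size. It recovered 0 of 50 at 1.5-fold, 6 at 2-fold, 33 at 4-fold and 44 at 8-fold, with 5 false calls among 44837 unchanged. Far fewer probe sets were changed there than were called in the data, so these shares do not give the power of the main fit. Small changes can be missed, and a probe set not called is not shown to be unchanged.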

Additional observations from a re-analysis of the deposited data

How the results depend on the processing

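Bhlha15 1449233_at and Id3 1416630_at kept direction and call in each of 15 alternatives, and 7 of the 10 probe sets called higher kept theirs in every fit run. The count of member probe sets called higher ranged from 7 to 10 over the fits that leave out 1 array, and that of lower ones from 1 to 4. The lower count was 5 with array weights, 2 with an eBayes trend and 2 with a pseudocount of 64. Over all probe sets, array weights gave 9645 higher and 11396 lower, and median centring 3521 lower. Leaving out 1 array gave 4012 to 8155 higher and 3236 to 9331 lower. The cause of these moves was not tested; array weights set B cell array 1 to 0.105. Median centring moved the median log2 fold change of all probe sets from −0.128 to −0.011. Replicate numbers are shared by the groups, and whether they mark pairs cannot be settled here. Deviations of same-numbered arrays correlated at 0.05, 0.003 and 0.053, and not every array correlated best with its own number. With the replicate block 7 member probe sets were called higher and 1 lower, and 4516 and 4140 of all probe sets. The member calls lost were those of Tcf4 1416723_at (adjusted p = 0.086) and 1416724_x_at (0.061) and Tcf12 1439619_at (0.105). Calls of list genes lost with it included Lyl1, Itpr2, Tgfbr1, Smad3, Vpreb1 and Rag2 (0.0575 to 0.111). Over the 7 lists together, 28 genes were called higher and 26 lower, and 21 to 36 and 20 to 37 over the alternatives. Probe sets near background limit what can be said of Id1, Id4 and the B cell level of Bhlha15.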
